A study of Mus musculus with 30 samples.

Results

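The genes described here build fatty acids and join them into glycerolipids, the lipids of membranes and fat droplets. The module holds 34 of the 36049 genes summed per library. They were chosen by name for their enzymatic role, with earlier results of these data known. By role they are 4 carbon supply genes, 3 chain synthesis genes, 5 desaturases, 10 elongation genes, 4 acyl-CoA synthetases, 7 glycerolipid synthesis genes and 1 lipase. RNA came from NIH3T3-CG, a line of mouse embryonic fibroblasts, whose suffix the labels do not explain. The series asks, by its title, how fluctuating transcription factors relate to variable Hedgehog responses. The mRNA of whole cultures was sequenced in 30 libraries, 3 for each of 10 groups. Prrx1 was delivered by transduction, and those cells were grown with doxycycline (the inducer of the construct) or without it. No group received doxycycline without the Prrx1 construct. The other 3 experiments used transfection. One compared Prrx1 and Snai1 plasmids with a shared control plasmid, another Egr1 and Jun plasmids with a shared control plasmid, and the last a Srebf2 plasmid with its own control plasmid. No label names the promoter of any plasmid, the culture medium or the serum, and none says whether replicates were separate cultures. The p-values therefore speak of library-to-library variation alone, and that variation may be technical.

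De novo synthesis starts from citrate, which Slc25a1 exports from mitochondria and Acly cleaves to acetyl-CoA. Acetyl-CoA carboxylases make malonyl-CoA, Fasn strings the units into palmitate, and elongases and desaturases shape longer and less saturated chains. Acyl-CoA synthetases activate the chains, which acyltransferases, lipins and diacylglycerol acyltransferases place on glycerol. Srebf1 and Srebf2 encode the SREBP factors, membrane-bound activators of lipid synthesis that are released by cleavage when sterols are low. SREBP-1 is best known for fatty acid genes and SREBP-2 for cholesterol genes, with overlap between them. Prrx1 is a homeobox factor of mesenchyme, Snai1 a repressor of epithelial genes, and Egr1 and Jun are immediate early factors.

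Promoter letters are shown for the 3 genes with the largest calls under Srebf2 whose window held at most 1 base of an annotated transcript, and for Fasn, a textbook SREBP target that was not called. Each is the 250 bases before the RefSeq start on GRCm38.p6, 5′ to 3′ on the gene's strand. Capitals mark matches, on either strand, to CACGTG (an E-box), CCAAT (the NF-Y box) or GGGCGG (a GC box).
Elovl5: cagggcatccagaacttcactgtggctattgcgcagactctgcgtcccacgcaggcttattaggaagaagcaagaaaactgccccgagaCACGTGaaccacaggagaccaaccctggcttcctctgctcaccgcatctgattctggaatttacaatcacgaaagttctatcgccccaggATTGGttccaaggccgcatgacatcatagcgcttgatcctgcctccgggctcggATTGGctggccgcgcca
Acsl3: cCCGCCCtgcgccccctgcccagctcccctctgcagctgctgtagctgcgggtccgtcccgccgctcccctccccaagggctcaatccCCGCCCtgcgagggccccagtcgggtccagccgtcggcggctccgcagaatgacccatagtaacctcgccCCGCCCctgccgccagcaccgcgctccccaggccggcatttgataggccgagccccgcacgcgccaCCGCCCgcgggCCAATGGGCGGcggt
Acsl4: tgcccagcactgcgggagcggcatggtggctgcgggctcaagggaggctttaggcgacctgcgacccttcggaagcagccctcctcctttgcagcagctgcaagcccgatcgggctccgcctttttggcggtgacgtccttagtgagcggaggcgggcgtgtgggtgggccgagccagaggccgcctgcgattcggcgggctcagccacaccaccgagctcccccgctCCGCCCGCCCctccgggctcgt
Fasn: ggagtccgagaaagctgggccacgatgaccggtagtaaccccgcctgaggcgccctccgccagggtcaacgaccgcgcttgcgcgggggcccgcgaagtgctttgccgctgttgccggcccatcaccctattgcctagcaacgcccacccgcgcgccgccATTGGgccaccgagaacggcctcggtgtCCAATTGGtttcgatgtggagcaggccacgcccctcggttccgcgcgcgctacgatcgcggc
The Elovl5 window is chr9:77917115-77917364, plus strand, with an E-box 161 bases before the start and CCAAT boxes at 71 and 17 bases. The Acsl3 window, chr1:78657575-78657824 on the plus strand, holds 5 GC boxes and 1 CCAAT box. The Acsl4 window, chrX:142390536-142390785 on the minus strand, holds 2 overlapping GC boxes. The Fasn window, chr11:120824548-120824797 on the minus strand, holds 3 CCAAT boxes, of which 2 overlap. RefSeq windows matched 29 of the 34 genes, leaving Scd1, Scd2, Fads1, Dgat1 and Dgat2. The letters TCACNCCAC, which resemble the sterol regulatory element, were in 0 of 29 windows and in 1.05% of 32851 promoters of the same length. CACGTG was in 5 of 29 windows (17.2%), against 6.02% of all promoters, CCAAT in 48.3% against 33.8%, and GGGCGG in 65.5% against 32.7%. These are letter matches and describe no binding.

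The cells carried the module at unequal levels. Levels are compared between genes as TPM, the authors' transcript abundance scaled for length and library size. Scd2, a desaturase that makes monounsaturated chains, was the highest member, with group means of 950.2 to 1323 TPM in the transfection experiments. In the transduction experiment Scd2 had 439 ± 27.8 TPM with doxycycline and 472 ± 47.8 TPM without (SD, n = 3). Acly and Tecr, the reductase that ends each elongation round, followed at 339 to 467 and 358 to 439 TPM in the transfection groups. Tecr values are uncertain, since 89.78% of its 31-base words are found in no other gene. At the low end, Acacb, Elovl4 and Dgat2 had group means of 1.43 to 4.55 TPM. Elovl7 and Mgll, a monoacylglycerol lipase, were near 0 and passed the filter on low counts only in the Egr1 and Jun experiment. Tests elsewhere cover 32 members, and tests there 34. The members summed to 2117 ± 52.7 TPM with doxycycline and 2126 ± 230 TPM without. The sums ran from 3465 to 4607 TPM over the transfection groups, where delivery and experiment cannot be told apart.

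Libraries held 7996355 to 37068611 estimated counts, with the transduction libraries the shallowest. The delivered factor rose in every comparison, by 3.86-fold for Prrx1 with doxycycline and by 27.5-fold, 123-fold, 9.53-fold, 22.1-fold and 4.20-fold for transfected Prrx1, Snai1, Egr1, Jun and Srebf2 (edgeR, adjusted p 5.47e-14 to 0.000368). All 11 fibroblast markers were detected in every group, at a summed 16648 to 29002 CPM (counts scaled to a common library total). The 8 adipocyte markers summed to 1.09 to 5.23 CPM, with Lep at 0 in all groups. In bulk RNA, fewer cells of a kind and less RNA per cell cannot be told apart.

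**Figure D1:**
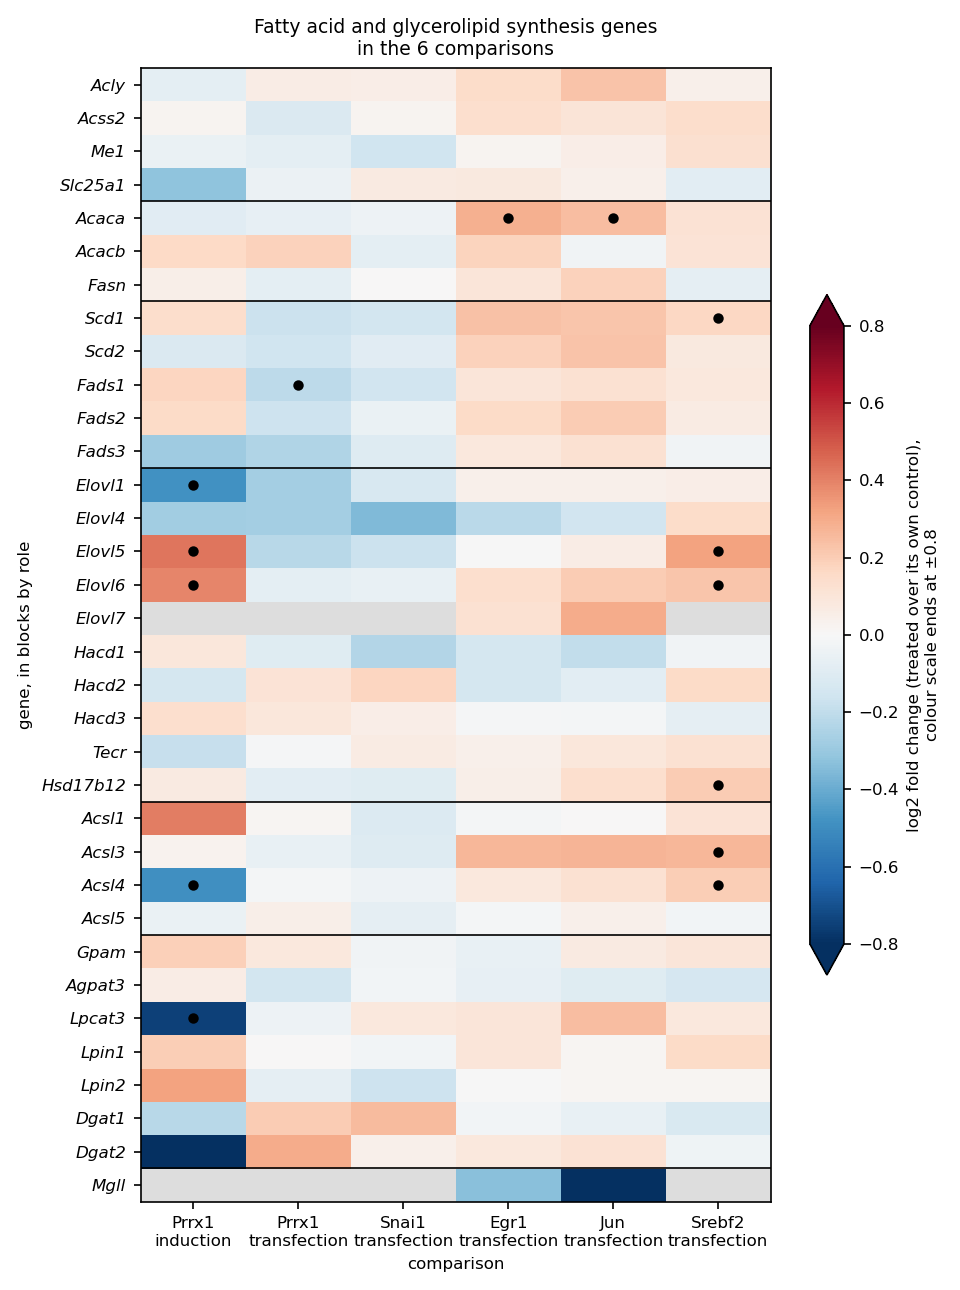
Heat map of the log2 fold change of each of the 34 genes (rows, in blocks by role) in the 6 comparisons (columns), each treated group over its own control. Black dots mark genes with an edgeR adjusted p under 0.05, and grey cells were below the count filter. Dots fall on 6 genes with Srebf2, 5 with induced Prrx1, and at most 1 in each other column.

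Transfected Srebf2 asks which lipid genes follow a higher level of SREBP-2 mRNA. Of the 32 members tested, 6 rose and 0 fell (edgeR quasi-likelihood test, Benjamini-Hochberg adjusted p under 0.05 over all 12730 genes). Without adjustment, 9 were higher and 1 lower at p under 0.05. The share of 18.75% stands beside 17.3% of all genes called, so the number of members called was near the background. By direction, 8.63% of all genes were called higher and 8.68% lower. Groups did not overlap for 11 members higher and 2 lower (40.625%), where 35.5% of all genes were apart, 18.2% higher and 17.4% lower. The median log2 fold change was 0.09 over members and 0.01 over all genes, with 23 members above 0 and 9 below. The called members are 3 of 9 elongation genes tested, 2 of 4 acyl-CoA synthetases and 1 of 5 desaturases.

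Elovl5 (chromosome 9, 77917364 to 77984519, plus strand, mm10), an elongase of polyunsaturated chains, had 89.0, 94.5 and 93.6 CPM with the Srebf2 plasmid, against 72.1, 75.9 and 73.9 CPM with the control plasmid. The 3 Srebf2 libraries lay above all 3 controls. Its log2 fold change was 0.32 (SE 0.054, 95% interval 0.21 to 0.43, adjusted p = 0.000877). Acsl3, which activates long chains at the endoplasmic reticulum and droplets, had 263, 274 and 295 CPM with Srebf2 and 216, 227 and 249 CPM in controls. The groups did not overlap, with the lowest Srebf2 library at 263 and the highest control at 249 CPM. Acsl3 rose by 0.27 on the log2 scale (SE 0.058, adjusted p = 0.0055).

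Elovl6, which lengthens palmitate to stearate, had 176, 184 and 198 CPM with Srebf2 and 160.0, 155.5 and 163 CPM in controls (log2 fold change 0.22, adjusted p = 0.00797). Hsd17b12, the ketoacyl reductase of the elongation cycle, had 233, 244 and 264 CPM, against 228, 205 and 212 CPM (0.20, adjusted p = 0.0205). Acsl4, which prefers arachidonate, had 218, 237 and 233 CPM, against 200.1, 198 and 203 CPM (0.19, adjusted p = 0.0119). In these 3 genes the groups again did not overlap, and for Hsd17b12 the lowest Srebf2 library and control replicate 1 were close. Scd1, the stearoyl-CoA desaturase, had 599.5, 615 and 630 CPM with Srebf2 and 518, 546 and 577 CPM in controls, apart by a narrow margin (0.17, adjusted p = 0.0317). Elovl5 was called in all 15 alternative analyses, Acsl3 in 13, Elovl6 in 12, Acsl4 in 10, Hsd17b12 in 8 and Scd1 in 7. Leaving out control replicate 2 left 2 members called, where 7.72% of all genes were called, and leaving out Srebf2 replicate 2 left 3, where 8.76% were.

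**Figure D2:**
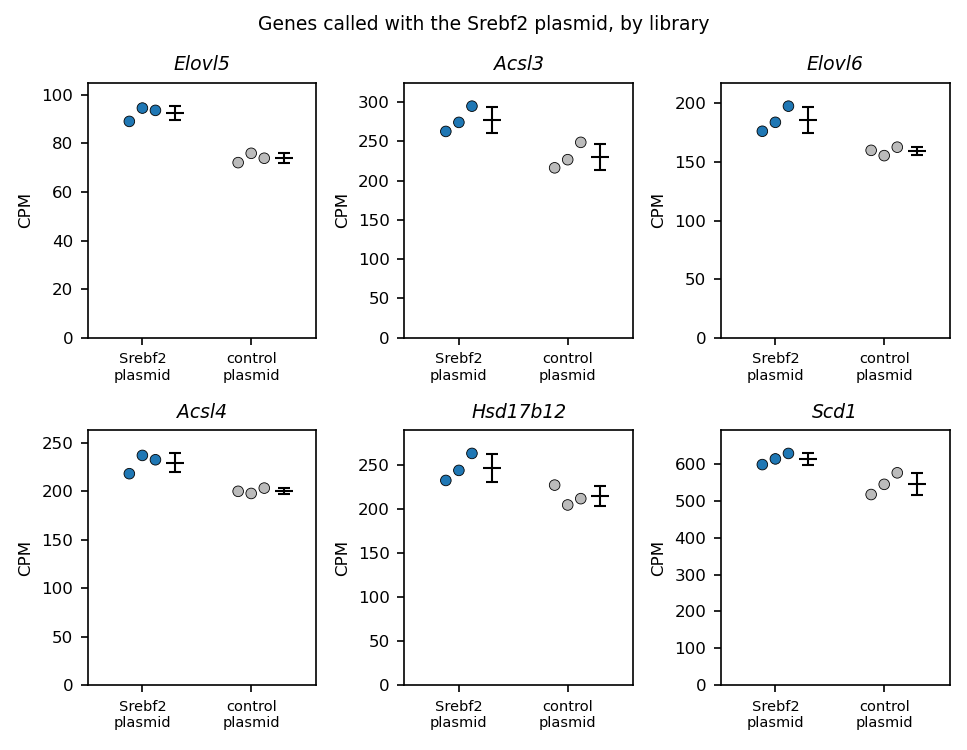
CPM (scaled counts, vertical axes, from 0) in each library for the 6 genes called with Srebf2, with Srebf2 plasmid libraries in blue left of control plasmid libraries in grey, and the mean ± SD of 3 libraries beside the points. In each gene the lowest Srebf2 library lies above the highest control, as for Elovl5 at 89.0 and 75.9 CPM.

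The first committed steps did not pass the test. Fasn had 574, 534 and 496.5 CPM with Srebf2 and 567, 553 and 565 CPM in controls, which overlap (log2 fold change -0.07, interval -0.18 to 0.04, adjusted p = 0.399). Acly, at 0.04 (interval -0.07 to 0.14), and the citrate carrier Slc25a1, at -0.08 (interval -0.19 to 0.03), were also not called. Acss2, which makes acetyl-CoA from acetate, had a wider interval of -0.04 to 0.32 around 0.14. Acaca, the cytosolic carboxylase, stood at 0.11 (interval 0.01 to 0.22, adjusted p = 0.114), with 66.6% of its 31-base words found in no other gene. Of the desaturases besides Scd1, the log2 fold changes were 0.08 for Scd2, 0.09 for Fads1 and 0.06 for Fads2 (the delta-5 and delta-6 desaturases), and -0.03 for Fads3. No glycerolipid synthesis gene of 7 passed the edgeR test, where 1 higher (Lpin1, 0.16) and 1 lower (Agpat3, -0.13) had an unadjusted p under 0.05. Of the members not called, Acaca, Scd2, Fads1, Tecr and Lpin1 lay above all controls in each Srebf2 library, and Agpat3 and Dgat1 lay below them. Srebf1 itself stood at -0.13 (edgeR adjusted p = 0.103), with each Srebf2 library below all controls.

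The unit mattered for Fasn. In the deposited TPM its mean was 127 ± 8.28 with Srebf2 and 112 ± 10.8 in controls, while its CPM leaned the other way. The 762-base transcript Fasn-202 held 28.0% ± 1.49 of Fasn TPM with Srebf2 and 12.8% ± 4.58 in controls. Acsl3 likewise had 180 ± 22.0 TPM and 125 ± 13.7 TPM, with the 502-base Acsl3-204 at 12.8% ± 6.59 and 1.76% ± 0.453.

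The change under Srebf2 followed base composition across the whole table. Over 12715 genes, the Spearman correlation of the log2 fold change with the GC content of a gene's transcripts was -0.475, a description over genes that share the same 6 libraries. In 4 bins of equal gene number, by rising GC content, the median change was 0.13, 0.05, -0.04 and -0.12. Genes called higher and lower numbered 670 and 39 in the lowest bin and 31 and 665 in the highest. The 6 called members had a GC content of 39.2 to 48.3% (median 44.8%), and the 26 others 45.6 to 59.1% (median 52.3%). Fragment lengths inferred from the effective lengths were 222 to 226.5 bases with Srebf2 and 229 to 247 bases in controls, and mitochondrial mRNA was 3.65 to 3.95% and 2.91 to 3.22% of counts.

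With a smooth offset on GC content per library, an alternative added after seeing the data, 2 members and 1038 genes (8.16%) were called. Elovl5 stood at 0.22 (adjusted p = 0.0124), and Tecr, at 0.12 without the offset, stood at 0.22 (adjusted p = 0.0047). The other 5 were no longer called, at 0.12 for Acsl3, Elovl6 and Scd1, 0.10 for Hsd17b12 and 0.01 for Acsl4 (adjusted p 0.125 to 0.888). Tecr had 266, 272 and 261 CPM with Srebf2 and 242, 245 and 246 CPM in controls, apart in all libraries. The part of GC content in these results was not tested beyond this offset.

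**Figure D3:**
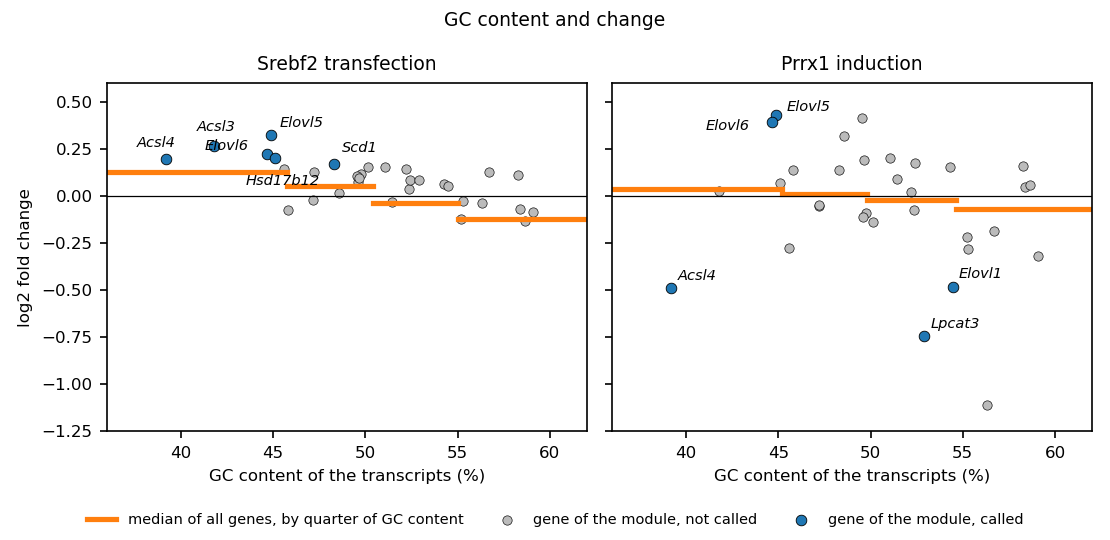
Log2 fold change (vertical axis) against the GC content of each gene's transcripts in percent (horizontal axis), with Srebf2 transfection on the left and Prrx1 induction on the right. Orange lines give the median of all genes in each of 4 GC bins, blue points the called members and grey points the others. With Srebf2 the bin medians are 0.13, 0.05, -0.04 and -0.12 and the called members lie between 39.2 and 48.3% GC, while with induced Prrx1 those of the lowest and highest bins are 0.04 and -0.07.

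Calls with Srebf2 in lists of neighbouring pathways are to be read beside the 8.63% of all genes called higher and 8.68% lower. Of 26 cholesterol genes tested, 8 were called, where 17.3% of all genes were: 5 rose and 3 fell. Idi1, the isopentenyl diphosphate isomerase, rose by 0.27 to 515 ± 44.3 CPM, against 429 ± 23.8 CPM, and Msmo1, Dhcr7, Hmgcs1 and Nsdhl rose by 0.26, 0.21, 0.21 and 0.16 on the log2 scale. Pmvk, Tm7sf2 and Mvd, enzymes of the same pathway, fell by 0.45, 0.37 and 0.20. Insig1, a textbook SREBP-2 target, stood at 0.02 and was not called. With the GC offset 3 rose and 3 fell, where 8.16% of all genes were called. Of 19 lipogenic regulators, Srebf2 and the protease gene Mbtps2 (0.24) rose, and Mid1ip1 (-0.25) and Nr1h2 (-0.20) fell. Of 13 droplet and lipolysis genes, the acid lipase Lipa rose by 0.20, and the coat genes Plin4 and Plin3 fell by 0.64 and 0.23. Of 25 fatty acid oxidation genes Cpt2 rose by 0.21, of 14 other fatty acid genes Acot7 fell by 0.16, and of 34 other glycerolipid genes Lclat1 rose by 0.16 and Pisd fell by 0.23.

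With induced Prrx1, 5 of 32 members were called, 2 higher and 3 lower (15.625%), where 6.19% of all genes were called. Doxycycline itself and Prrx1 cannot be told apart in this comparison, since no group had doxycycline without the construct. By direction, 3.45% of all genes were called higher and 2.74% lower. Members had a median log2 fold change of 0.02, against -0.01 over all genes, with 17 above 0 and 15 below. Elongation genes went both ways, and the synthetase and acyltransferase that were called both fell.

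Elovl5 had 94.9, 95.2 and 95.3 CPM with doxycycline, against 69.8, 66.6 and 75.3 CPM without. The doxycycline libraries hardly differed from each other and lay above all those without. Elovl5 rose by 0.43 on the log2 scale (SE 0.085, interval 0.24 to 0.62, adjusted p = 0.0116). Elovl6 had 87.2, 85.9 and 89.0 CPM with doxycycline and 63.6, 69.7 and 66.4 CPM without (0.39, SE 0.084, adjusted p = 0.0177). Elovl1, the elongase of very long saturated chains, ran the other way, at 30.3, 26.9 and 29.2 CPM with doxycycline and 43.6, 38.2 and 38.5 CPM without (-0.48, adjusted p = 0.0289). The groups of both genes were apart.

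Acsl4 (chromosome X, 142317993 to 142390535, minus strand) fell to 168, 172 and 165 CPM with doxycycline, against 235, 233 and 242 CPM without (log2 fold change -0.49, SE 0.071, adjusted p = 0.00166). The gap between the groups was wider than the range within either. Lpcat3 (chromosome 6, 124663027 to 124704418, plus strand), which places polyunsaturated chains into phosphatidylcholine, had 27.9, 24.1 and 23.7 CPM, against 45.6, 36.6 and 44.2 CPM. It fell by 0.75 (0.596-fold, adjusted p = 0.00495), and 90.9% of its 31-base words are found in no other gene. Acsl4 was called in 14 of 15 alternatives, Lpcat3 in 13, Elovl5 in 10, Elovl6 in 9 and Elovl1 in 8. Leaving out any 1 doxycycline library left 2 members called, both lower, where 2.38 to 3.002% of all genes were called. With the GC offset the same 5 genes were called, where 6.11% of all genes were, at 0.40 for Elovl5, 0.36 for Elovl6, -0.45 for Elovl1, -0.55 for Acsl4 and -0.73 for Lpcat3.

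**Figure D4:**
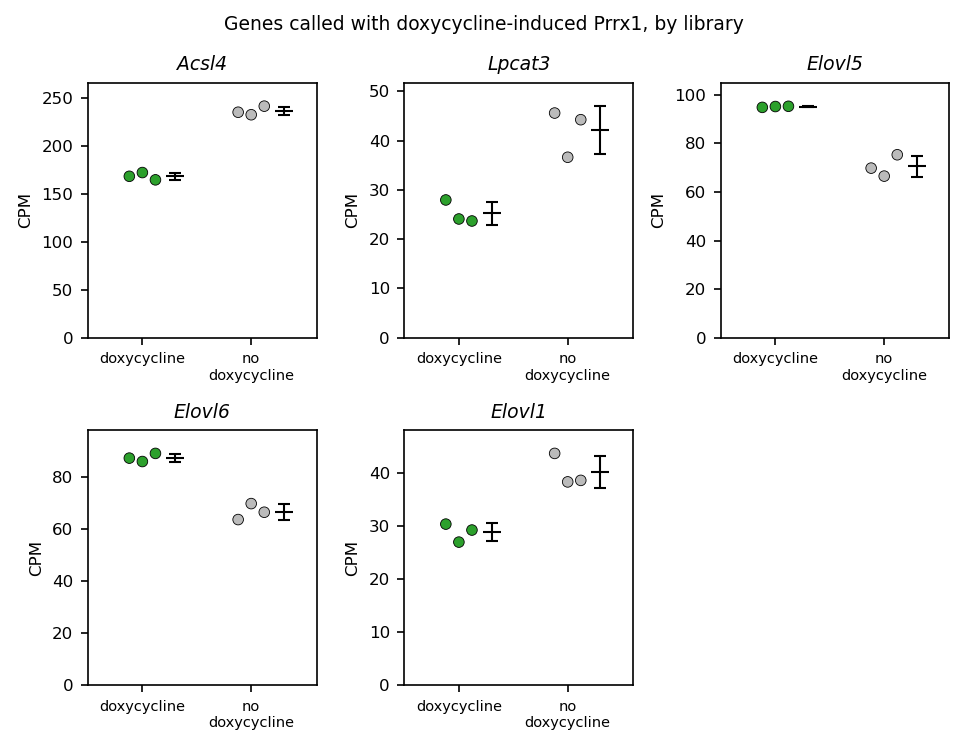
CPM (scaled counts, vertical axes, from 0) in each library for the 5 genes called with induced Prrx1, with doxycycline libraries in green left of libraries without doxycycline in grey, and the mean ± SD of 3 libraries beside the points. Elovl5 and Elovl6 are higher with doxycycline, and Acsl4, Lpcat3 and Elovl1 are lower, with no overlap in any of the 5.

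Some members that did not pass the test had groups that did not overlap. In all, 4 members were apart higher and 8 apart lower (37.5% of 32), where 25.4% of all genes were apart, 13.4% higher and 12% lower. They include the phosphatidate phosphatase Lpin2 (0.32, adjusted p = 0.062), Acsl1 (0.41, adjusted p = 0.112), Fads3 (-0.28, adjusted p = 0.0816) and Slc25a1 (-0.32, adjusted p = 0.0982). Dgat2, which completes triglyceride, was near the limit of detection, at 2.35, 3.01 and 0.727 CPM with doxycycline and 3.26, 5.38 and 4.43 CPM without (-1.11, interval -2.15 to -0.06, adjusted p = 0.235). Chain synthesis did not pass the test, with Fasn at 0.05 (interval -0.17 to 0.26), Acaca at -0.09 and Acly at -0.08.

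Of 27 cholesterol genes in the same cells, 8 rose and 19 did not pass the test. Counts here stand beside 3.45% of all genes called higher and 2.74% lower. Ebp, the sterol isomerase, rose by 0.71 to 58.5 ± 4.91 CPM, against 35.7 ± 4.23 CPM without doxycycline. Sqle, the squalene epoxidase, rose by 0.51, Msmo1 by 0.49 and Insig1, which retains SREBPs in the endoplasmic reticulum, by 0.47. Srebf1 (-0.17) and Srebf2 (0.04) were not called. Of 25 oxidation genes, Cpt1a, which admits chains to mitochondria, fell by 0.71 to 304 ± 6.89 CPM, against 498 ± 51.7 CPM, and Acadvl fell by 0.41. The droplet coat gene Plin2 fell by 0.46 (of 13 genes), the dehydratase Hacd4 rose by 1.29 (of 17 other fatty acid genes), and of 33 other glycerolipid genes Gpat3 and Plpp3 fell by 0.59 and 0.48 while Plpp1 rose by 0.35. Of 8 adipocyte markers only 1, Fabp4, passed the count filter, on low counts. Fabp4 rose by 2.58 to 1.55 ± 0.458 CPM, against 0.249 ± 0.139 CPM (edgeR, adjusted p = 0.0449). Of 11 fibroblast markers, Col3a1 fell by 0.95 and Pdgfrb rose by 0.79. Fragment lengths were 187 to 189 bases with doxycycline and 162 to 175 bases without, and the part of this difference was not tested.

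Transfected Prrx1 called 1 member of 32, lower, where 3% of all genes were called, 1.94% higher and 1.06% lower. Fads1 (chromosome 19, 10182888 to 10196877, plus strand) had 475, 473 and 467 CPM with the Prrx1 plasmid and 559.5, 539 and 536 CPM with the control plasmid. All 3 Prrx1 libraries lay below all 3 controls. Fads1 fell by 0.21 on the log2 scale (SE 0.051, adjusted p = 0.0478), and kept that call in 6 of 15 alternatives. Elovl1 had 94.7, 94.9 and 92.0 CPM with Prrx1 and 128, 104.6 and 107 CPM in controls (-0.27, adjusted p = 0.0766). Members leaned low, with 10 above 0 and 22 below and a median of -0.07, against 0.004 over all genes. In all, 2 members were apart higher and 8 apart lower (31.25%), where 19.1% of all genes were apart, 9.82% higher and 9.32% lower.

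Transfected Snai1, measured against the same controls, called 0 of 32 members in edgeR, where 1.62% of all genes were called, 1.14% higher and 0.481% lower. Without adjustment, 1 was higher and 5 lower at p under 0.05, and DESeq2 and limma on TPM called 1 each. Fads1 had 493, 496 and 483 CPM with Snai1, below each of the controls given above (-0.15, adjusted p = 0.156). Dgat1, the other enzyme that completes triglyceride, had 46.8, 46.8 and 46.6 CPM with Snai1 and 44.5, 38.4 and 34.8 CPM in controls (0.25, adjusted p = 0.164). The Snai1 libraries agreed closely and lay above the controls, which spread widely. In all, 1 member was apart higher and 4 apart lower (15.625%), where 20.5% of all genes were apart, 10.4% higher and 10.2% lower. Over 13097 genes the Spearman correlation of the Snai1 change with GC content was 0.334. With the GC offset edgeR called 322 genes (2.46%) and again 0 members, with Fads1 at -0.17 (adjusted p = 0.0582) and Dgat1 at 0.20 (adjusted p = 0.167). Snai1 and Prrx1 differed directly in 0 of 32 members in edgeR, also at an unadjusted p under 0.05, where 0.252% of all genes were called.

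These counts rested on 1 control library. Control replicate 1 had 174 CPM of Acsl4, against 261 and 254 CPM in the other controls, and 3874 CPM of Scd2, against 4793 and 4594 CPM. Elovl1 and Dgat1 were higher there than in the other controls. Without that library, 9 members were called with Prrx1, where 19.7% of all genes (2639) were called. Dgat1 was higher (0.30), and Scd2 (-0.25), Elovl5 (-0.29), Scd1 (-0.26), Fads1 (-0.19), Elovl6 (-0.17), Acsl4 (-0.18), Elovl1 (-0.18) and Acaca (-0.13) were lower. With Snai1, 13 members were called, 4 higher and 9 lower, where 22.9% of all genes (3062) were called. They include Dgat1 (0.35), Slc25a1 (0.17), Hacd2 (0.24), Scd1 (-0.24), Elovl5 (-0.23), Lpin2 (-0.24) and Acsl4 (-0.20). The library's share in the result was measured only by leaving it out. Mitochondrial mRNA was 1.07 to 1.48% with Prrx1, 1.06 to 1.35% with Snai1 and 2.03 to 2.45% in controls, and its part was not tested.

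**Figure D5:**
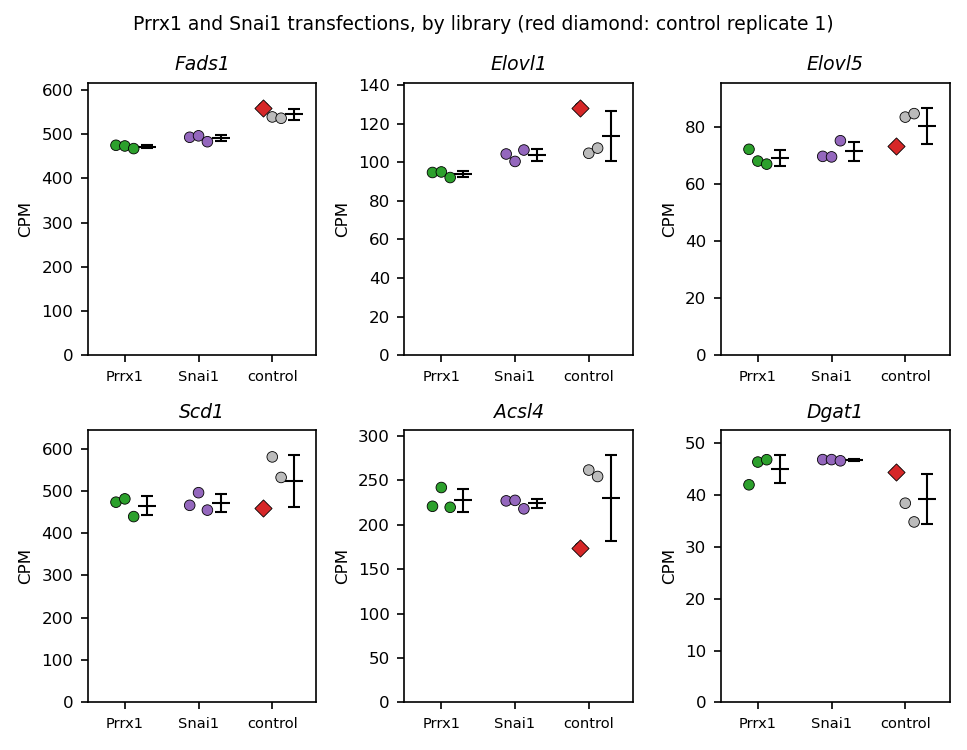
CPM (scaled counts, vertical axes, from 0) in each library of the Prrx1, Snai1 and control plasmid groups, left to right, for Fads1, Elovl1, Elovl5, Scd1, Acsl4 and Dgat1, with the mean ± SD of 3 libraries beside the points and control replicate 1 as a red diamond. The diamond is the highest or the lowest control in each of the 6 genes, as for Acsl4 at 174, against 261 and 254 CPM.

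Other lipid genes with transfected Prrx1 changed in small numbers, to be read beside the 1.94% of all genes called higher and 1.06% lower. Nsdhl and Msmo1 fell by 0.32 and 0.22 (of 26 cholesterol genes), Agpat1 fell by 0.34 (of 34 other glycerolipid genes), and Eci1 and Etfa of fatty acid oxidation rose by 0.35 and 0.29 (of 25). Without control replicate 1, 3 of 27 cholesterol genes tested were higher and 8 lower, where 19.7% of all genes were called.

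The same factor delivered in the transduced cells and by plasmid gave different changes in 4 members, where 5.91% of all genes differed. The difference, induction minus transfection, was 0.65 for Elovl5 (SE 0.110, adjusted p = 0.00117) and 0.47 for Elovl6 (adjusted p = 0.0127). It was 0.38 for Fads1 (adjusted p = 0.0465) and -0.71 for Lpcat3 (SE 0.130, adjusted p = 0.00215). Elovl5 stood at 0.43 with induction and -0.22 with transfection, on opposite sides of 0. Lpcat3 stood at -0.75 and -0.04. Experiment, delivery, doxycycline and dose of the factor cannot be told apart.

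Transfected Egr1 and Jun share their controls, and each called 1 member of 34, Acaca in both. For Egr1, 0.323% of all genes were called, and for Jun 0.956%. Acaca (chromosome 11, 84129672 to 84401651, plus strand) had 204, 210 and 220 CPM with the Egr1 plasmid and 202, 204 and 210 CPM with the Jun plasmid, against 179.9, 173 and 167 CPM with the control plasmid. Both plasmid groups lay above all 3 controls. Acaca rose by 0.28 with Egr1 (SE 0.042, adjusted p = 0.00984) and by 0.24 with Jun (SE 0.042, adjusted p = 0.0171). The Egr1 call was lost without Egr1 replicate 2 (adjusted p = 0.0804) or control replicate 3 (0.0668). The Jun call was lost without control replicate 3 (adjusted p = 0.0818) or any Jun library (0.0628 to 0.117). The Acaca values are uncertain, since 66.6% of its 31-base words are found in no other gene and the rest are shared mainly with Gm5182 and Mettl6.

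Beyond Acaca, no member was called with Jun. By role, 5 of 5 desaturases, 6 of 10 elongation genes and 5 of 7 glycerolipid synthesis genes were above 0, with median log2 fold changes of 0.21, 0.05 and 0.02. In all, 12 members were apart higher and 1 apart lower (38.2% of 34), where 22.7% of all genes were apart, 11.4% higher and 11.2% lower. The 12 include Acly (0.23), Fasn (0.19), Scd1 (0.22), Scd2 (0.23), Fads2 (0.21), Elovl6 (0.20) and Acsl3 (0.27), none of them called (adjusted p 0.092 to 0.214). Elovl6, with the lowest p of these, had 198, 215 and 201 CPM with Jun and 188, 179 and 169 CPM in controls. The median was 0.08 over members and -0.01 over all genes. Fibroblast markers summed to 20569 to 22147 CPM with Jun and 16880 to 19639 CPM in controls, without overlap. Of the 11 markers, 2 were called, Fn1 and Lum, both higher, and 9 did not pass the test. Fn1 made up much of the sum, at 12008 ± 660 CPM with Jun and 9667 ± 902 CPM in controls. With Egr1 the markers summed to 20133 to 20640 CPM, also above the shared controls, and 0 of the 11 were called. Mitochondrial mRNA was 1.65% ± 0.215 of counts with Jun, 1.67% ± 0.061 with Egr1 and 1.38% ± 0.05 in controls (SD, n = 3). Egr1 libraries, at 1.62 to 1.74%, lay above controls at 1.32 to 1.41%, while Jun libraries, at 1.40 to 1.80%, overlapped the controls. The part of the markers or of mitochondrial mRNA was not tested. With Egr1 the median over members was also 0.08, against -0.003 over all genes. Above 0 were 5 of 5 desaturases, 5 of 10 elongation genes and 3 of 7 glycerolipid synthesis genes, with medians of 0.15, 0.02 and -0.003. With Egr1, 1 member was apart higher and 1 lower (5.88%), where 15.6% of all genes were apart, 8.15% higher and 7.46% lower. Acsl3, second by p, had 204, 212 and 178 CPM with Egr1 and 187.5, 155 and 151 CPM in controls, which overlap (0.27, adjusted p = 0.31). Jun and Egr1 differed directly in 0 of 34 members in edgeR, with 1 at an unadjusted p under 0.05, where 0.44% of all genes were called.

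The Egr1 and Jun counts depended on the setting. On log2(TPM + 1), limma called 11 members higher with Egr1 and 17 with Jun, where 9.44 and 17.7% of all genes were called. In that setting the median of all genes itself stood at 0.15 and 0.14. Of the genes called there, 98.4 and 97.8% were higher, against 63.8 and 47.5% in the reported edgeR fit. The limma setting changed the method as well as the unit. On length-scaled TPM counts, edgeR called 0.0405 and 0.223% of all genes, with medians of -0.002 and -0.004. Acaca was not called there with either factor (edgeR adjusted p = 0.335 and 0.145). Of 35 other glycerolipid genes with Jun, the choline kinase Chka fell by 0.28 and the cardiolipin synthase Crls1 rose by 0.26. Markers of other cells moved with single libraries here. The 6 hepatocyte markers summed to 37.1 CPM in control replicate 2, mostly Ttr at 33.6 CPM, and to 0.108 to 6.57 CPM in the other libraries of the experiment. The 6 epithelial markers summed to 157 CPM in Egr1 replicate 3 and 2.56 to 14.9 CPM elsewhere. Without control replicate 2, 1 member was called with each factor, where 0.234% of all genes were called with Egr1 and 0.455% with Jun. Without Egr1 replicate 3, 2 were called higher with Egr1, where 0.682% of all genes were called.

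Set against the other factors, the Srebf2 changes differed in some members, with no library shared. Against transfected Prrx1, 7 members differed, all with the higher log2 fold change under Srebf2, where 14.9% of all genes differed, 6.82% higher and 8.1% lower. The differences were 0.55 for Elovl5 (adjusted p = 0.000679), 0.35 for Scd1, 0.33 for Acsl3 and Elovl1, 0.31 for Elovl6, 0.30 for Fads1 and 0.29 for Hsd17b12. Of these, Elovl1 and Fads1 were not called with Srebf2 against its own control. Against Snai1, 6 differed upward and 1 downward, where 16.4% of all genes differed, 7.38% higher and 9.07% lower. They include Elovl5 at 0.50 (adjusted p = 0.00144), Acsl3 at 0.37 and Dgat1 at -0.38 (adjusted p = 0.0254). Without control replicate 1 of the Prrx1 and Snai1 experiment these counts were 13 and 15, where 30.3 and 32.6% of all genes differed. Without Srebf2 replicate 3, 2 members differed against Prrx1, where 9.76% of all genes did. Without control replicate 2 of the Srebf2 experiment, 1 member differed against Snai1, where 10.1% of all genes did. Against Egr1, where 3.04% of all genes differed (1.18% higher, 1.86% lower), Elovl5 alone differed (0.33, adjusted p = 0.024), and with the GC offset 0 did in edgeR, where 1.28% of all genes differed. Against Jun, 0 of 34 differed in edgeR, of which 3 had an unadjusted p below 0.05 (1 up, 2 down), where 1.09% of all genes did.

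Against induced Prrx1, 3 members differed, all with the higher log2 fold change under Srebf2, where 5.49% of all genes differed, 2.55% higher and 2.94% lower. The differences were 0.82 for Lpcat3 (adjusted p = 0.000622), 0.66 for Acsl4 (adjusted p = 6.47e-05) and 0.52 for Elovl1 (adjusted p = 0.0115). Lpcat3 and Elovl1 were not called with Srebf2, and fell by 0.75 and 0.48 with induced Prrx1. Elovl5 and Elovl6 rose in both comparisons, in experiments with no common library. Elovl5 stood at 0.32 with Srebf2 and 0.43 with induced Prrx1, and Elovl6 at 0.22 and 0.39. Elovl6 was not called with Srebf2 under the GC offset (0.12, edgeR adjusted p = 0.125). With induced Prrx1 it was not called on length-scaled TPM counts (0.15, edgeR adjusted p = 0.62). Acsl4 rose by 0.19 with Srebf2, without the GC offset, and fell by 0.49 with induced Prrx1.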

How the data were processed

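RNA of 30 NIH3T3-CG libraries had been quantified per transcript. The authors used kallisto 0.43.0 and build mm10, per the submitters' processing notes, and the annotation release, strand and read layout are not given in the sources used here. The deposited files hold estimated counts and TPM for 118491 targets, per the file headers, of which 116816 matched GENCODE M21 by versioned ID. Unmatched targets held 0.605 to 0.694% of counts and were not used.

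Estimated counts were summed over 36049 genes (2 added reporter sequences included) and rounded to whole numbers. Each experiment was fitted alone in edgeR 4.0.16 (R 4.3.3) by the robust quasi-likelihood test, on group means with TMM scaling and filterByExpr (minimum count 10, minimum total 15). A gene was called at a Benjamini-Hochberg adjusted p under 0.05 over all genes tested, either direction. CPM are TMM-scaled within an experiment, so their levels are not compared between experiments. Intervals are at 95%, and counting depth was 7996355 to 37068611 per library. No pair of libraries was identical. Differences between experiments were contrasts in a fit of both. Genes with less than 90% of their 31-base words found in no other gene are uncertain (Me1, Acaca, Hacd1 and Tecr).

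The module, gene lists and tests were chosen with earlier results of these data known. Members called were named, with library values for those with the largest change (up to 12 with Srebf2, up to 4 elsewhere). Where fewer than 2 were called, the 2 lowest p were named, and from each list up to 4 called genes. All cholesterol genes called with Srebf2, Elovl1 with induced Prrx1, Insig1 with Srebf2, and further members apart or not called were named in addition, after their values were seen. Alternatives were RLE size factors, DESeq2 1.42.0, no filter, at least 5 CPM in 3 libraries, length-scaled TPM counts, limma 3.58.1 on log2(TPM + 1) at a mean TPM of at least 1, 1 fit over all libraries, the replicate number as a block, leaving out each library, and a GC offset (lowess on genes of at least 5 CPM) chosen after seeing the data. Code was tested on simulated data.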

Additional observations from a re-analysis of the deposited data

Results flagged for a closer look

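The change of 4 members with Prrx1 differed between the doxycycline-induced, transduced cells and the transfected cells, by an edgeR test of the difference of log2 fold changes (induction minus transfection, over all 15378 genes tested, of which 5.91% differed). The difference was 0.65 for Elovl5 (SE 0.110, adjusted p = 0.00117), 0.47 for Elovl6 (SE 0.108, adjusted p = 0.0127), 0.38 for Fads1 (SE 0.109, adjusted p = 0.0465) and -0.71 for Lpcat3 (SE 0.130, adjusted p = 0.00215). Each of the 3 doxycycline libraries was above the 3 without for Elovl5 and Elovl6 and below them for Lpcat3, while the groups overlapped for Fads1. With transfection, all 3 Prrx1 libraries were below the controls for Elovl5 and Fads1, and the groups overlapped for Elovl6 and Lpcat3. Over settings that left out 1 library, 3 to 8 members differed, where 3.66 to 9.98% of all genes did. With the GC offset 5 did, where 7.19% of all genes did, Acsl4 in addition at -0.62.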

How the results depend on the processing

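No result changed sign where it was called. DESeq2 called 420, 857, 648 and 533 genes with Egr1, Jun, transfected Prrx1 and Snai1, and 2, 7, 2 and 1 members. With no filter, 1326 genes were called with induced Prrx1, 597 with transfected Prrx1 (2 members) and 440 with Snai1. At 5 CPM in 3 libraries Jun called 252 genes and 2 members. Length-scaled TPM counts called 6, 33, 286, 256, 141 and 1104 genes with Egr1, Jun, induced Prrx1, transfected Prrx1, Snai1 and Srebf2, and 0, 0, 1, 1 and 3 members with Egr1, Jun, induced Prrx1, Snai1 and Srebf2. On log2(TPM + 1), limma called 1172, 2203, 162, 367 and 1019 genes with Egr1, Jun, induced Prrx1, Snai1 and Srebf2, and 11, 17, 0, 3 and 1 members with Egr1, Jun, induced Prrx1, transfected Prrx1 and Snai1. Beside those member counts, limma called 9.44, 17.7, 1.16, 3.69 and 3.05% of all genes. There 66.5% of calls with Srebf2 were higher, against 49.9% in the reported fit, and 70.4% with induced Prrx1, against 55.8%. One fit over all libraries called 94, 60, 2728 and 568 genes with Egr1, Jun, induced Prrx1 and Srebf2, and 10, 2 and 1 members with induced Prrx1, transfected Prrx1 and Srebf2. Beside those member counts, this joint fit called 16.9, 2.08 and 3.52% of all genes. In that fit 34.8% of calls with induced Prrx1 were higher, 50.1% with transfected Prrx1, against 64.6%, and 59.9% with Snai1, against 70.3%. Jun had 47.5% higher, but 30.3% with length-scaled counts, 31.7% in the joint fit and 57.5% at 5 CPM. The GC offset called 765, 322 and 1038 genes with transfected Prrx1, Snai1 and Srebf2, 3 and 2 members with transfected Prrx1 and Srebf2, and 0 and 4 members differing between Srebf2 and Egr1 or Snai1. In those 2 differences, 1.28 and 11.4% of all genes differed. The cause was not tested. RLE size factors moved no count by over 1.5 times.

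Same-numbered libraries of 2 groups had deviations correlated at -0.168 to 0.144, never over 0.1 in every pair, and the reported fits used no pairing. With 3 libraries per group these correlations cannot exclude pairing, and no label states it. A replicate block called 23 and 71 genes with Egr1 and Jun, and 0 members with Egr1, Jun and transfected Prrx1.

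Leaving out 1 library gave 10 to 102 genes with Egr1, 29 to 94 with Jun, 335 to 1250 with induced Prrx1, 106 to 2639 with transfected Prrx1, 46 to 3062 with Snai1 and 996 to 2329 with Srebf2. Members called were 0 to 2, 0 to 2, 2 to 6, 0 to 9, 0 to 13 and 2 to 6 in the same order. Members differing were 3 to 8 between both deliveries of Prrx1, and 0 to 2, 2 to 13 and 1 to 15 between Srebf2 and Egr1, Prrx1 transfection or Snai1. In the same order, 3.66 to 9.98%, 0.513 to 5.18%, 9.07 to 30.3% and 10.03 to 32.6% of all genes differed. Depth limits Dgat2, Acacb, Elovl4, Elovl7 and Mgll most.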

Other observations

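Hacd2, a dehydratase of the elongation cycle, had different values by unit in the Prrx1 and Snai1 experiment. Its TPM averaged 51.3 ± 3.76 with Prrx1, 50.4 ± 3.93 with Snai1 and 20.5 ± 3.59 in controls (SD, n = 3), while its CPM averaged 30.2 ± 1.72, 31.6 ± 1.62 and 28.0 ± 2.16. The 389-base transcript Hacd2-202 held 66.3% ± 9.46 of its TPM with Prrx1, 75.4% ± 0.587 with Snai1 and 12.5% ± 11.2 in controls. In the Srebf2 experiment that transcript held 6.92% ± 11.6 with Srebf2 and 54.9% ± 15.1 in controls, where Hacd2 itself had 24.2 ± 6.44 and 26.6 ± 4.16 TPM. Such shares rest on the authors' assignment of reads to short transcripts, and no test was run on them.

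Mgll had at most 0.449 CPM in 28 of 30 libraries. It had 1.58 CPM in Egr1 replicate 3, the library with the highest summed epithelial markers, and 2.54 CPM in control replicate 2 of that experiment, the one with the highest summed hepatocyte markers.

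Across the 6 comparisons, the log2 fold change of Dgat2, a gene near the limit of detection in the transduced cells, ranged over 1.41, of Lpcat3 ranged over 0.99, of Acsl4 over 0.68, of Elovl5 over 0.65 and of Elovl1 over 0.53. Acsl4, Elovl5 and Elovl6 were each called in 2 comparisons, Srebf2 transfection and Prrx1 induction, and Acaca in Egr1 and Jun transfection, which share controls.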
